A study of Rattus norvegicus with 16 samples.

Results

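The long noncoding RNAs (lncRNAs) that rat tibialis anterior muscle held at a substantial level are described here, as 144 of 2488 rows that the deposited gene table files as lncRNA, out of 31141 rows in all. A row was taken as well expressed where its FPKM was at least 5 in at least 4 of 16 libraries. FPKM here is a read count per kilobase of gene on the authors' scale between libraries, which assigned reads alone do not set. H19 and Meg3 were to be left out, but H19 is filed as protein-coding and no row carries the symbol Meg3, so this removed no row. The groups were 6 DMD_KD libraries from dystrophic rats (genotype label Dmd) given MCTKD, 6 DMD_ND libraries from dystrophic rats given a normal diet (ND), and 4 WT_ND libraries from wild-type rats given the normal diet. All rats had the Wistar-Imamichi background and were fed from weaning until 9 months of age. The labels name no Dmd allele, and no wild-type rats on MCTKD are in the design, so the diet could be compared in mutant muscle only. MCTKD is known from the study's field as a ketogenic diet rich in medium-chain triglycerides.

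A lncRNA is a transcript longer than a small RNA for which no protein product is annotated. Some act in the nucleus on chromatin or splicing, some carry snoRNAs or microRNAs in their introns, and many have no known role. In annotations of species such as the rat, a lncRNA entry can also hold a stretch of a coding gene's transcript that was not joined to its gene model. Loss of dystrophin, the product of Dmd, leaves the fibre membrane fragile, and dystrophic muscle goes through cycles of fibre loss and repair with leukocyte entry, fibrosis and fat deposition.

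The libraries held 17125084 to 28116085 reads assigned to genes, and the well-expressed lncRNA rows took 0.306 to 0.536% of them in DMD_KD, 0.506 to 0.607% in DMD_ND and 0.272 to 0.393% in WT_ND. Dmd itself was at 0.546 to 2.04 FPKM in DMD_KD and 1.37 to 1.98 FPKM in DMD_ND, against 4.13 to 11.9 FPKM in WT_ND. The tissue label was met: all 6 muscle fibre markers were detected, and they summed to 18006 to 32184 FPKM in DMD_ND and 50812 to 94185 FPKM in WT_ND. One library, DMD_KD replicate 3, stood apart from its group, with a weight of 0.129 where the other DMD_KD libraries had 1.02 to 2.03 when limma estimated a weight for each, so results on the diet are also given without it. Of the WT_ND libraries, replicates 1 and 4 also had low weights, 0.283 and 0.238.

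The lncRNA label did not describe all of these rows equally well. Symbols of coding genes stood on 12 rows (Gpx3, Gid4, Micos10, Ufsp1, Samd8, Rpl30, Ubl3, Tspyl1, Lemd2, Snapc5, Tmem230 and Hilpda), and the descriptions of a further 16 named a protein, among them adipogenin, RhoB, Tim13, COX14, COX17 and C/EBPα. An uncharacterized LOC name was given to 5 rows, and 111 had neither a coding gene's name nor a protein name. No row carried any of 67 symbols of lncRNAs, small RNA hosts and muscle micropeptides listed for this work, such as Neat1, Malat1, Gas5 or Pvt1. As 130 of the 144 have no symbol at all, whether any of them is one of these known lncRNAs was not determined. Such rows are called here by the nearest protein-coding gene in the deposited coordinates (build mRatBN7.2).

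Most well-expressed lncRNA rows lay just past the 3′ end of a protein-coding gene. Within 5 kb on that side of a coding gene stood 104 of 144 rows (72.2%), 60 on the gene's own strand and 44 on the other, against 465 of the 2344 other lncRNA rows (19.8%). Among the 214 other lncRNA rows that were expressed enough to be tested, the count was 117 (54.7%). The gap to the neighbour was 5 to 4479 bases, with a median of 819. Only 22 of the 144 (15.3%) had no coding gene within 5 kb, against 48 of the 214 other tested rows (22.4%) and 1160 (49.5%) of all other lncRNA rows. Gene models without an intron made up 83 (57.6%) of the well-expressed rows, 109 (50.9%) of the other tested rows and 350 (14.9%) of all others, so in this trait they were close to the other tested rows. These shares follow from which annotated rows pass a level, and no test was run on them.

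**Figure D1:**
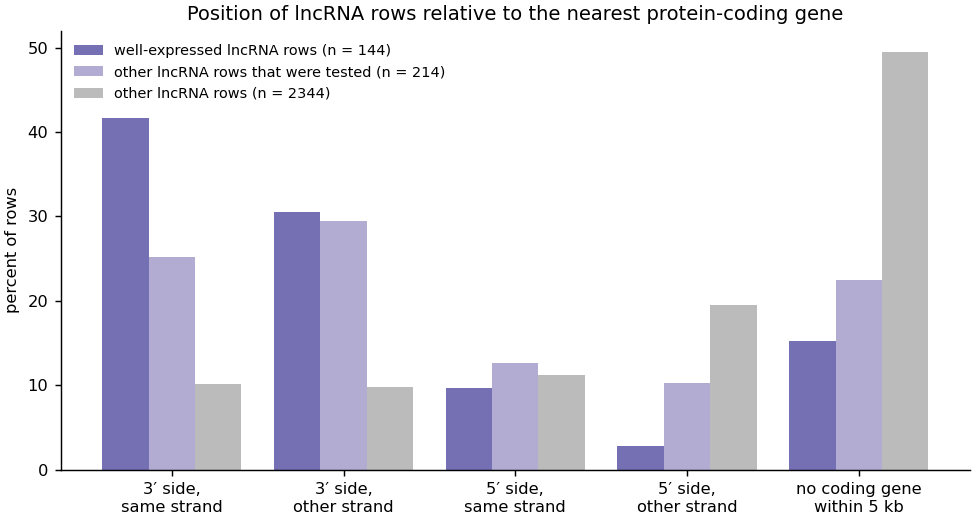
Percent of lncRNA rows (vertical axis) in each position class relative to the nearest protein-coding gene, for the 144 well-expressed rows, the 214 other rows that were tested and all 2344 others. The 3′ side classes hold 72.2% of the well-expressed rows, and the class without a coding gene within 5 kb holds 15.3%.

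The 144 rows averaged 3.13 to 86.8 FPKM over the 16 libraries, with a median of 9.89, and only 5 averaged 50 or more. In every one of the 16 libraries, 68 rows were at 5 FPKM or above. In contrast, 19 rows reached 5 FPKM in no WT_ND library and so entered through the mutant libraries, and 2 reached it in no mutant library. Since the level rule could pick rows for a high level in 1 group, these 21 were bound to differ between mutant and WT_ND libraries. They are named as such where they appear, with their values and no p or remark on overlap for a comparison with WT_ND. Among the 123 rows that reached 5 FPKM in at least 1 library on both sides, 28 were higher in DMD_ND, 42 were lower and 53 did not pass the test described further on. Of all genes tested, 31.5% were higher and 34.3% lower. The split took out 19 rows that were higher and 2 that were lower, so the balance of these counts follows from it. It did not remove the selection in full. Rows at 5 FPKM in fewer than 4 WT_ND libraries met the rule only with mutant libraries, and some of them stay among the 123.

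Of the 5 rows with the highest means, 4 carried a protein description or a LOC name, and the directions given here for the Tim13, TCTA homolog and Pno1-side rows turn round in TPM, where LOC102550325 did not pass (log2 fold change -0.03, adjusted p = 0.827, limma). It did not pass with the replicate number as a block either (-0.74, adjusted p = 0.0793, limma). The row described as Tim13, a chaperone of the mitochondrial intermembrane space, averaged 85.4 ± 33.5 FPKM in DMD_KD, 72.4 ± 3.44 in DMD_ND and 111 ± 35.6 in WT_ND (SD, n = 6, 6 and 4). LOC102550325, on chromosome 2 at 174693398 to 174694783 and 2531 bases from Efna1, averaged 67.3 ± 25.5 FPKM in DMD_KD, 51.7 ± 6.62 in DMD_ND and 110 ± 32.9 in WT_ND. The row described as RhoB, a small GTPase of endosomes, was the only one of the 5 that was higher in DMD_ND, with 65.3 ± 21.6 FPKM there and 38.7 ± 8.92 in WT_ND. The row described as the TCTA homolog had 48.1 ± 3.70 FPKM in DMD_ND and 77.9 ± 11 in WT_ND. ENSRNOG00000043210, 2325 bases past Pno1 on chromosome 14 at 91604121 to 91606907, had 55.1 ± 6.54 FPKM in DMD_ND and 72.5 ± 10.8 in WT_ND and carries no name in the files.

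The first comparison, DMD_ND against WT_ND, asks which lncRNA rows differ in dystrophic muscle. Of the 144 rows, 47 were higher in DMD_ND, 44 were lower and 53 did not pass limma's moderated test on log2(FPKM + 1), at an adjusted p under 0.05 with the Benjamini-Hochberg method over all 12119 genes tested. This share, 63.2%, stood close to the 65.7% of all genes tested that were called, so the members' count is not a result about lncRNAs. Of protein-coding rows that passed the same level rule, 70.3% were called, 25.2% as higher and 45.1% as lower; of the members, 32.6% were higher and 30.6% lower. The median log2 fold change was 0.04 over the 144 rows and -0.04 over all genes tested. The libraries of the groups did not overlap for 41 rows that were higher and 40 that were lower in DMD_ND (56.2%, beside 55.1% of all genes tested). Directions here are relative to the authors' scaling between libraries: rescaling each library to TPM, so that all sum to the same total, moves the median of all genes by 0.92 on the log2 scale, and 106 of the 144 rows are then higher and 5 lower, beside 70.7% and 5.94% of all genes tested. Relative to the median of all genes the rows stood at 0.08 in the deposited scaling and at 0.13 in TPM. A change of at least 2-fold upward was seen for 23 of the called rows and of at least 2-fold downward for 11 in the deposited scaling. In bulk tissue, fewer cells of a type and less RNA per cell cannot be told apart, and the labels do not say that each library came from a separate rat, so p-values measure the spread between these libraries.

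**Figure D2:**
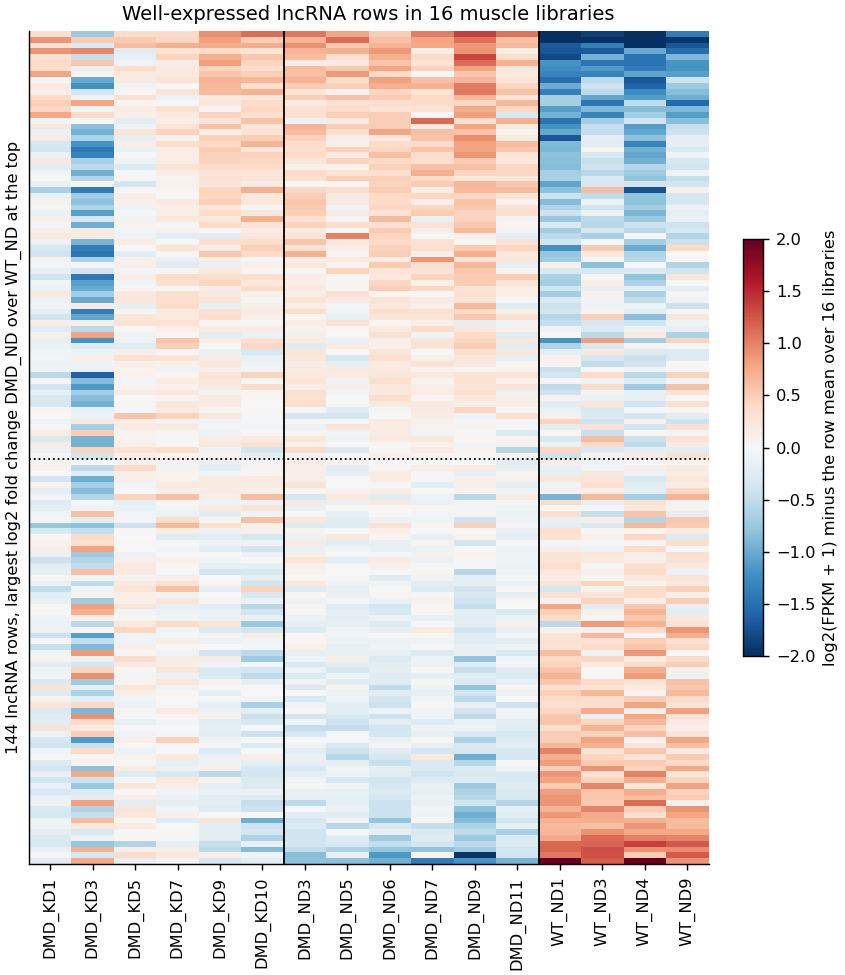
Each line is 1 of the 144 lncRNA rows, sorted by the log2 fold change of DMD_ND over WT_ND, and each column is 1 library. Colour gives log2(FPKM + 1) minus the row's mean over the 16 libraries, cut at 2 in both directions; the dotted line parts the 74 rows with a positive log2 fold change from the 70 with a negative one, and DMD_KD3 differs in colour from the other DMD_KD columns.

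The make-up of the tissue moved with the same contrast. All 6 muscle fibre markers fell in DMD_ND (3 of 6 in TPM, none higher), all 8 macrophage and leukocyte markers rose (summed 318 to 722 FPKM in DMD_ND, 18.8 to 42.4 FPKM in WT_ND), and all 6 fibro-adipogenic progenitor markers rose (summed 1276 to 2012 FPKM in DMD_ND, 82.2 to 211 FPKM in WT_ND). All 4 adipocyte markers rose as well, with sums of 28.9 to 154 FPKM in DMD_ND and 4.17 to 22 FPKM in WT_ND. Of 5 endothelial markers, 2 fell and none rose (in TPM none fell and 3 rose), with sums of 44.6 to 62.0 FPKM in DMD_ND and 51.9 to 70.9 FPKM in WT_ND. None of the detected markers of these lists was at 0 in all libraries, and the part of cell make-up in the lncRNA results was not tested.

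The 2 highest log2 fold changes were those of rows just past collagen genes. ENSRNOG00000064142, on the plus strand of chromosome 11 at 42908366 to 42909428, lies 1941 bases past Col8a1, which codes for a short-chain collagen of basement membranes. It had 9.50 to 18.6 FPKM (median 14.4) in DMD_ND, against 0.172, 1.06, 0.548 and 1.85 FPKM in WT_ND. This is 1 of the 19 rows that entered through the mutant libraries alone, and the fitted difference of 3.03 on the log2(FPKM + 1) scale, 8.15-fold, is a description. Because this scale adds 1 FPKM to each value, it understates the change of a row as low as this one in WT_ND. ENSRNOG00000064136, on the plus strand of chromosome 3 at 11354747 to 11357054, begins 158 bases past Col5a1, a fibrillar collagen subunit that sets fibril diameter. It had 34.9 to 51.3 FPKM (median 39.0) in DMD_ND, against 3.44, 4.44, 5.05 and 5.19 FPKM in WT_ND. The row was 7.67-fold higher. Fewer than 4 WT_ND libraries reached 5 FPKM, so it met the level rule only with mutant libraries and no p is given. Col5a1 itself rose by 2.48 and Col8a1 by 1.14 on the same log2 scale, less than the row beside each. In DMD_KD these rows averaged 35.9 ± 5.12 FPKM beside Col5a1 and 9.65 ± 4.14 beside Col8a1 (SD, n = 6).

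**Figure D3:**
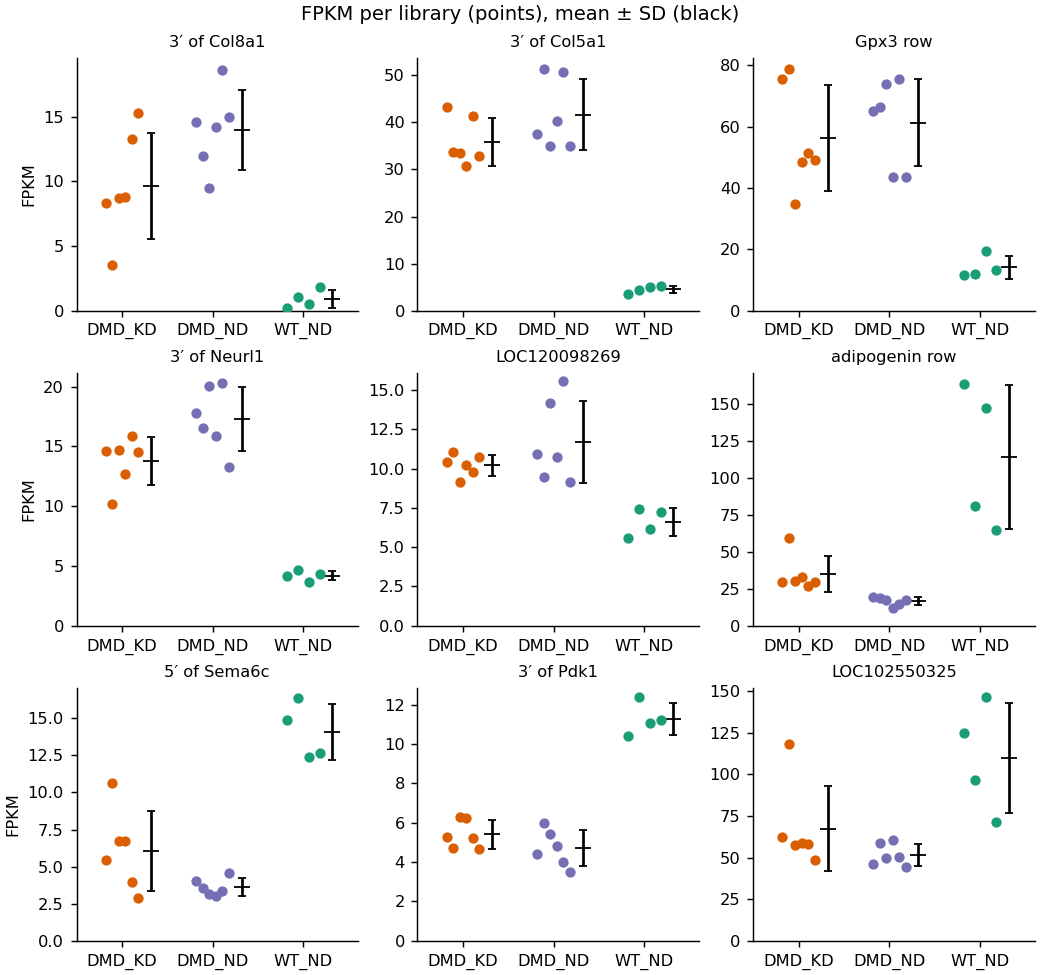
FPKM of 9 lncRNA rows in each library (points) with the group mean ± SD (black), for 6 DMD_KD, 6 DMD_ND and 4 WT_ND libraries. The rows past Col8a1 and Neurl1 entered through mutant libraries alone, and the row past Col5a1 met the level rule only with mutant libraries. Gpx3 and LOC120098269 are higher in every DMD_ND library than in any WT_ND library, and the 4 remaining rows are lower.

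Among rows past genes for receptors and cell-surface proteins, several rose. The row 890 bases past Tgfbr3, which codes for the TGF-β co-receptor betaglycan, had 19.4 to 39.9 FPKM (median 22.1) in DMD_ND, against 3.65, 7.43, 4.87 and 7.74 FPKM in WT_ND. The row was 3.73-fold higher. Fewer than 4 WT_ND libraries reached 5 FPKM, so it met the level rule only with mutant libraries and no p is given. Beside 6 receptor genes (Tgfbr3, Bmpr2, Acvr2a, Lrp6, Fzd4 and Npr3, a set drawn up from the neighbours' names after the values were seen), 3 rows rose, none fell and 3 did not pass, beside 31.5% higher and 34.3% lower among all genes tested. Of those that rose, the rows past Tgfbr3 and Npr3 met the level rule only with mutant libraries, so counts over the 6 are no result about these rows. In TPM all 6 rows were called higher, beside 70.7% of all genes tested. Relative to the median of all genes the 6 stood at 0.80 in the deposited scaling and at 0.91 in TPM. In the deposited scaling, the row past Lrp6, a Wnt co-receptor, rose 1.79-fold (adjusted p = 0.00208, limma) while Lrp6 fell (log2 fold change -1.01, adjusted p = 0.000115). The row past Npr3, the clearance receptor of natriuretic peptides, was 2.37-fold higher, with a log2 fold change of 0.05 for Npr3 (adjusted p = 0.822). The rows past the type II receptors Bmpr2 and Acvr2a had log2 fold changes of 0.25 and 0.67 and adjusted p-values of 0.484 and 0.0643.

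Rows past 3 genes of vessels and stromal progenitors form another set put together with the values known. The row past Mcam entered through mutant libraries alone, so its higher level followed from the level rule. For the rows past Cd34 and Calcrl, fewer than 4 WT_ND libraries reached 5 FPKM. They met the level rule only with mutant libraries, so their values are given without p. Past Cd34, a surface sialomucin of endothelium and progenitor cells, the row averaged 16.1 ± 4.61 FPKM in DMD_ND and 5.77 ± 1.28 in WT_ND (SD, n = 6 and 4), a 2.48-fold difference. The row past Mcam, an adhesion molecule of endothelium and pericytes, averaged 7.14 ± 1.12 FPKM in DMD_ND and 2.21 ± 0.251 in WT_ND, having entered through mutant libraries alone, and the one past Calcrl, the adrenomedullin and CGRP receptor, 13.5 ± 2.07 FPKM in DMD_ND and 4.07 ± 2.19 in WT_ND. Their neighbours moved less: the log2 fold change was 0.96 for Cd34, 0.47 for Mcam and 0.01 for Calcrl, of which the last did not pass (adjusted p = 0.977, limma). The summed endothelial markers, given above, overlapped between DMD_ND and WT_ND.

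The row past Prune2 had 22 to 29.3 FPKM (median 25.4) in DMD_ND, against 4.06, 5.12, 1.97 and 3.88 FPKM in WT_ND, 5.78-fold higher. The row past Neurl1, which codes for a ubiquitin ligase, had 13.2 to 20.3 FPKM (median 17.1) in DMD_ND, against 4.15, 4.65, 3.66 and 4.32 FPKM in WT_ND, 3.50-fold, but it entered through mutant libraries alone. The Prune2 row met the level rule only with mutant libraries, so no p is given for it. Neurl1 went the other way, at 27.6 FPKM on average in DMD_ND and 72.2 in WT_ND (log2 fold change -1.35, adjusted p = 5.34e-06, limma). Both rows lie on the strand opposite to their neighbour.

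The rows that carry a coding gene's name gave calls in both directions: of 28, 7 rose (25%), 12 fell (42.9%) and 9 did not pass, with a median log2 fold change of -0.31, whereas in TPM 21 rose and 2 fell. These shares stood close to the 25.2% and 45.1% of coding rows at the same level, so they are not a result about these rows. Gpx3, named for the secreted selenoenzyme glutathione peroxidase 3, had 43.6 to 75.6 FPKM (median 65.7) in DMD_ND, against 11.6, 11.8, 19.5 and 13.4 FPKM in WT_ND. It rose 4.12-fold without overlap (adjusted p = 7.24e-07, limma). Rows described as C/EBPα, a transcription factor of fat and myeloid cells, and as GAS1, a membrane protein of Hedgehog signalling, averaged 5.70 ± 1.87 and 8.10 ± 1.94 FPKM in DMD_ND, against 0.850 ± 0.217 and 1.90 ± 0.288 FPKM in WT_ND (3.54-fold and 3.09-fold); both entered through mutant libraries alone. The row described as PRELID1, which carries phosphatidic acid between the mitochondrial membranes, rose 2.68-fold, to 32.4 ± 4.07 FPKM in DMD_ND, against 12.0 ± 4.66 in WT_ND. Hilpda, named for a lipid droplet protein induced by low oxygen, also entered through mutant libraries alone and had 3.41 to 9.42 FPKM in DMD_ND and 0.729, 1.95, 2.66 and 1.63 FPKM in WT_ND (2.46-fold). Micos10, named for the subunit that shapes mitochondrial cristae, fell in the deposited scaling to 21.0 ± 1.90 FPKM in DMD_ND, against 35 ± 3.58 in WT_ND (adjusted p = 0.000306). In TPM the 2 rows that fell were the adipogenin row and a golgin A4 row, so Micos10 was not called lower there.

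Promoter sequences from RefSeq (build GRCr8) could be matched for 12 of the 19 members that have a symbol or a LOC name. Shown are Gpx3 and Hilpda, as named rows that were higher in DMD_ND, LOC120098269, as a snoRNA-bearing row that rose, and Micos10, as a named row that fell in the deposited scaling. Each runs 5′ to 3′ on the gene's own strand from 250 bases before to 50 bases after its start. Capitals mark matches on either strand to ACGTG, the core of the hypoxia response element, to CCAAT, the CCAAT box, and to GGGCGG, the GC box.
Gpx3 (chr10:39529085-39529384, plus strand): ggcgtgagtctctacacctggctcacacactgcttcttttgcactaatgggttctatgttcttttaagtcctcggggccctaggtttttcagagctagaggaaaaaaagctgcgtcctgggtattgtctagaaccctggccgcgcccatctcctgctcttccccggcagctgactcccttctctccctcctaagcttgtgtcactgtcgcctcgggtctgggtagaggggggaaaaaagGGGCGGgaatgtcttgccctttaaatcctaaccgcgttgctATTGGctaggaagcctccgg
Hilpda (chr4:58836213-58836512, plus strand): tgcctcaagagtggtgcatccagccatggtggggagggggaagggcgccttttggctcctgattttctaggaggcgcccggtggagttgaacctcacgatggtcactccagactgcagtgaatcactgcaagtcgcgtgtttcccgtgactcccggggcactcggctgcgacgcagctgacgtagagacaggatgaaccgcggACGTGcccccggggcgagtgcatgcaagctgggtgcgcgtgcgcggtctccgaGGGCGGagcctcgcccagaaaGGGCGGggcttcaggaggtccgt
LOC120098269 (chr18:25677907-25678206, plus strand): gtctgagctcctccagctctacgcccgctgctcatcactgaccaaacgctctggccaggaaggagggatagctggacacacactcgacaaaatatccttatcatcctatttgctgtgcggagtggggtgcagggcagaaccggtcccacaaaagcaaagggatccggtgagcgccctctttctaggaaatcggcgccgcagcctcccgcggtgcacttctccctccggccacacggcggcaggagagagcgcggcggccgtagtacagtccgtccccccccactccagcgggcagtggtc
Micos10 (chr5:156650582-156650881, minus strand): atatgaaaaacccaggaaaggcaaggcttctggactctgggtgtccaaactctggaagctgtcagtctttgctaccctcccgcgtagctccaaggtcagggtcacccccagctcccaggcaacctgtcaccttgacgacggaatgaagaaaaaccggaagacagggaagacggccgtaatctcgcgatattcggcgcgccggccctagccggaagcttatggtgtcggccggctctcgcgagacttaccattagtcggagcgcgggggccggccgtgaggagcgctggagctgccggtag
The Hilpda window held ACGTG once and GGGCGG at 2 places, and the Gpx3 window held 1 CCAAT, read on the other strand, and 1 GGGCGG. The LOC120098269 and Micos10 windows held none of these letters. Among all 33469 promoter windows of the same length, 19.3% held ACGTG, 37.5% CCAAT and 33.1% GGGCGG on either strand, so each is a common string. The matches describe the letters only.

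There were 6 rows with a small nucleolar or Cajal body RNA inside their span, with a median log2 fold change of 0.66 in DMD_ND against WT_ND. Of the 6, 2, past Dipk1b and beside Rcc1, entered through mutant libraries alone, so their higher level followed from the level rule. The others were all called higher in DMD_ND, where 31.5% of all genes tested were. LOC120102992, 58 bases from Trnau1ap, holds 4 snoRNAs on its own strand and averaged 13.1 ± 3.08 FPKM in DMD_ND and 9.63 ± 1.48 in WT_ND (1.31-fold, adjusted p = 0.0355, limma). LOC120098269, which holds 1 snoRNA and lies 76 bases from Epb41l4a, had 9.17 to 15.6 FPKM (median 10.8) in DMD_ND, against 5.55, 7.44, 6.16 and 7.24 FPKM in WT_ND. Its groups did not overlap, at 1.65-fold (adjusted p = 0.000139). The Rpl30 row, named for a ribosomal protein gene, holds 2 snoRNAs and rose 1.52-fold (adjusted p = 0.000416). The row past Fsd2, with Mir1839 filed as a scaRNA, rose 1.24-fold (adjusted p = 0.0283). The row past Dipk1b, with Snora17 on the other strand, averaged 7.33 ± 2.19 FPKM in DMD_ND and 2.05 ± 0.845 in WT_ND, and the row beside Rcc1, with 2 SNORA73 copies on the other strand, 5.47 ± 1.23 FPKM in DMD_ND and 2.47 ± 0.734 in WT_ND. Libraries were made from poly-A RNA, so these values speak of the long rows, not of the small RNAs within their span. In DMD_KD, 3 of the 6 were higher than in WT_ND by the same test, where 58.3% of all genes tested were called in either direction. The 6 include the 2 rows that entered through mutant libraries alone, and the share called higher is not given. This count is thus no result about these rows.

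The largest fall was in ENSRNOG00000065916, the row described as adipogenin, a small protein of adipocytes, on the plus strand of chromosome 3 at 147154097 to 147160490. It had 12.2 to 19 FPKM (median 17.2) in DMD_ND, against 163, 80.7, 147 and 65.0 FPKM in WT_ND. Every DMD_ND library was below every WT_ND library, and the log2 difference was -2.63 ± 0.25 (SE, adjusted p = 1.09e-07, limma). This fall stood against all 4 adipocyte markers, which rose. The next was ENSRNOG00000064312, 1 of 3 rows described as golgin A4, a tether of trans-Golgi vesicles. It had 0.227 to 3.95 FPKM (median 2.12) in DMD_ND and 8.74, 10.4, 5.72 and 9.9996 FPKM in WT_ND (log2 fold change -1.75). Only WT_ND libraries and DMD_KD replicate 5 reached 5 FPKM for this row. Its lower level in DMD_ND thus followed from the level rule, and no p is given. A second golgin A4 row fell in the deposited scaling to 30.2 ± 5.94 FPKM in DMD_ND, against 63.3 ± 9.84 in WT_ND, but was not called lower in TPM. The third did not pass (adjusted p = 0.189). These 3 rows share a description and may share reads, so their split is uncertain.

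The row before Sema6c, a transmembrane semaphorin, had 3.04 to 4.59 FPKM (median 3.48) in DMD_ND, against 14.9, 16.4, 12.4 and 12.6 FPKM in WT_ND (log2 fold change -1.70, adjusted p = 3.26e-06, limma), and Sema6c fell with it (-1.86). The row past Sc5d, a late enzyme of cholesterol synthesis, had 1.45 to 1.94 FPKM (median 1.74) in DMD_ND, against 6.90, 7.01, 8.32 and 7.40 FPKM in WT_ND. The log2 fold change was -1.63 for this row and -1.59 for Sc5d. The row 10931 bases from Dusp16, a phosphatase of the JNK pathway, had 1.94 to 3.14 FPKM (median 2.86) in DMD_ND, against 7.22, 9.64, 8.86 and 8.59 FPKM in WT_ND. The rows by Sc5d and Dusp16 are the 2 that entered through WT_ND libraries alone, so their lower level in mutants followed from the level rule. The row 8889 bases from Vcan, a matrix proteoglycan, fell to 6.05 ± 1.78 FPKM in DMD_ND, against 13.5 ± 0.355 in WT_ND, while Vcan rose (log2 fold change 1.43, adjusted p = 3.05e-05). In TPM the row by Sema6c and the adipogenin row were still lower and called, and those by Vcan, Pdk1 and Hif1an did not pass.

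Rows past genes of mitochondria and fuel use fell in the deposited scaling. In a set of 5 such neighbours, picked from their names after the values were seen, all 5 rows fell, with a median log2 fold change of -0.85, where 34.3% of all genes tested were called lower; in TPM none fell, 1 rose and the median was 0.10. Relative to the median of all genes the 5 stood at -0.81 in the deposited scaling and at -0.72 in TPM. Past Pdk1, the kinase that holds back pyruvate dehydrogenase, the row had 3.51 to 6.01 FPKM (median 4.62) in DMD_ND, against 10.4, 12.4, 11.1 and 11.2 FPKM in WT_ND (log2 fold change -1.12, adjusted p = 4.91e-07, limma). Past Opa1, which fuses inner mitochondrial membranes, the row averaged 15.1 ± 1.25 FPKM in DMD_ND and 28.4 ± 3.90 in WT_ND. Past Atp5pb, a stalk subunit of ATP synthase, the averages were 5.05 ± 0.470 FPKM in DMD_ND and 9.94 ± 1.67 in WT_ND. The row past Gpd1, described as COX14, and the row past Sfxn5 had log2 fold changes of -0.58 and -0.46. The row past Hif1an, the hydroxylase that restrains HIF, fell as well (log2 fold change -1.09, adjusted p = 1.23e-06). The share of reads from mitochondrial genes moved with these falls, at 11.9 to 14.0% in DMD_ND and 19.7 to 25.1% in WT_ND; its part in them was not tested.

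Of 6 rows past genes of the insulin, FoxO and mTOR pathway (Foxo1, Foxo3, Fbxo32, Gsk3b, Eif4ebp2 and Rragd, again chosen with values known), 2 fell and 4 did not pass (in TPM 3 rose and 3 did not pass). The share that fell was close to the 34.3% of all genes tested. The neighbours had a median log2 fold change of -1.14 and the rows one of -0.13. The row past Rragd, a GTPase that recruits mTORC1 to lysosomes, averaged 17.8 ± 3.51 FPKM in DMD_ND and 37.4 ± 5.99 in WT_ND. The row past Eif4ebp2, a repressor of translation, averaged 23.0 ± 1.34 FPKM in DMD_ND and 41.9 ± 11.6 in WT_ND. The row past Fbxo32, the atrophy ubiquitin ligase atrogin-1, had 26.0 to 41.0 FPKM (median 32.4) in DMD_ND and 31.1, 38.6, 22.9 and 51.4 FPKM in WT_ND, which overlapped (adjusted p = 0.654), whereas Fbxo32 itself fell (log2 fold change -1.12, adjusted p = 0.00156).

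Rows on the 3′ side were, for the most part, less reduced or more increased than the coding gene beside them. In 99 pairs where both were tested, the row's log2 fold change in DMD_ND against WT_ND lay above its neighbour's in 86 and below it in 13, with a median difference of 0.80. The level rule was set on the rows and not on the neighbours, over 12 mutant and 4 WT_ND libraries, so the choice of rows can itself tilt this balance, which is given as a description. Without the 12 pairs whose row entered on 1 side alone, a split chosen after seeing the data, 76 of 87 lay above and 11 below, with a median difference of 0.76. The 87 still hold rows that met the level rule only with mutant libraries, so this split does not remove the tilt. Over all 99 pairs, the neighbours had a median of -0.67, the rows of 0.08. Both row and neighbour were called in 47 pairs. No share for other pairs of neighbouring genes is set beside this, so the counts are no result about the rows. Row and neighbour rose together in 10 and fell together in 23, the row rose and the neighbour fell in 12, and the reverse held in 2. These directions hold in the deposited scaling only, as TPM moves the median of all genes by 0.92. The difference between row and neighbour depended less on it: in TPM 86 of 99 rows lay above their neighbour, with a median difference of 0.89. Across pairs on the same strand, Pearson's r was 0.65 and Spearman's rho 0.55 (59 pairs), and on opposite strands 0.44 and 0.54 (40 pairs). These correlations are across genes measured in the same libraries and are given as descriptions. In the 26 pairs farther away or on the 5′ side, r was -0.11. Where the strand setting of the counting is unknown, reads of a row and of a gene that runs into it on the opposite strand cannot be told apart.

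**Figure D4:**
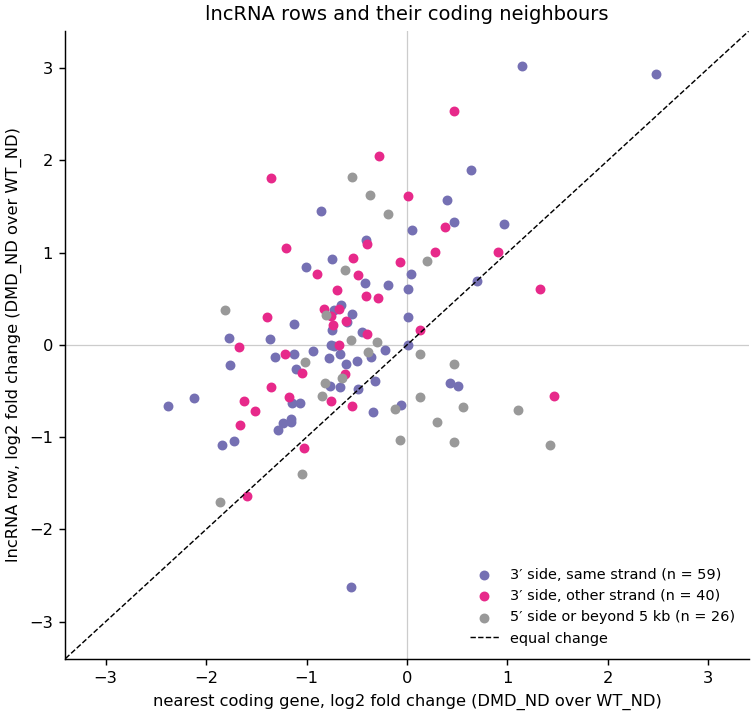
Log2 fold change of DMD_ND over WT_ND on the log2(FPKM + 1) scale, for the nearest coding gene (horizontal axis) and the lncRNA row (vertical axis), 1 point for each of 125 pairs, coloured by position. Of the 99 pairs on the 3′ side, 86 lie above the dashed line of equal change.

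The same shift was seen library by library. The median over the 99 pairs of log2(FPKM + 1) of the row minus that of its neighbour was 0.45 to 0.96 in the DMD_KD libraries, 0.75 to 1.47 in the DMD_ND libraries, and 0.19, 0.10, 0.38 and 0.25 in the WT_ND libraries. Every mutant library was above every WT_ND library, and the lowest mutant value belonged to DMD_KD replicate 3. Over the 87 pairs the ranges were 0.51 to 1.08 in DMD_KD, 0.82 to 1.49 in DMD_ND and 0.21 to 0.41 in WT_ND. In the diet comparison the direction was the opposite: 13 rows lay above their neighbour's log2 fold change and 86 below it, with a median difference of -0.28. Without DMD_KD replicate 3 the counts were 16 and 83, and the median difference was -0.19. The 2 comparisons share the DMD_ND libraries, so their values are given side by side only.

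**Figure D5:**
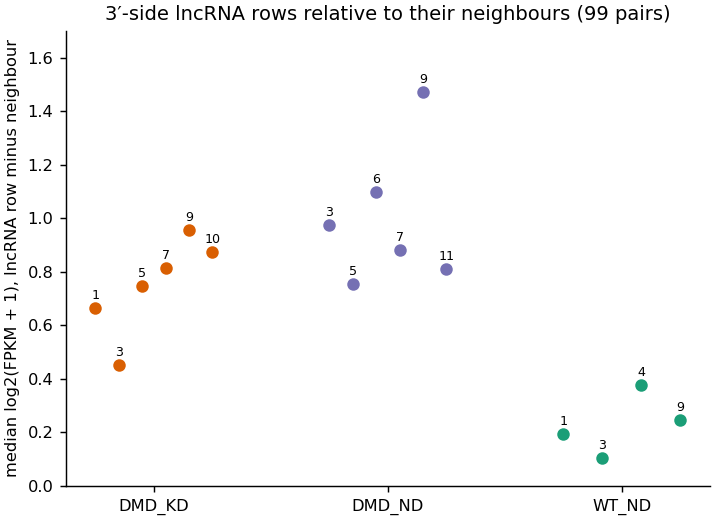
Median over 99 pairs of log2(FPKM + 1) of the 3′-side lncRNA row minus its coding neighbour (vertical axis), 1 point for each library, labelled with its replicate number. The DMD_KD points lie at 0.45 to 0.96, the DMD_ND points at 0.75 to 1.47 and the WT_ND points at 0.10 to 0.38.

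The effect of MCTKD was read within mutant muscle, as DMD_KD against DMD_ND. None of the 144 rows passed limma's test at an adjusted p under 0.05; over all 12119 genes 1 did (0.00825%). At an unadjusted p under 0.05 there were 26 rows (18.1%), 8 higher and 18 lower in DMD_KD, beside 14.3% of all genes tested. Without DMD_KD replicate 3, again none was called, and 20 rows had an unadjusted p under 0.05, 9 higher and 11 lower. The libraries of the groups did not overlap for 1 row that was higher and 2 that were lower in DMD_KD (2.08%, against 1.48% of all genes tested). Without DMD_KD replicate 3 these were again 1 and 2 rows (2.08%), against 2.07% of all genes tested.

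The row with the smallest p was that described as adipogenin, which had 27 to 59.0 FPKM (median 30.0) in DMD_KD and 12.2 to 19 FPKM (median 17.2) in DMD_ND. All 6 DMD_KD libraries were above all 6 DMD_ND libraries, and the highest was replicate 3. The log2 fold change was 0.99, with an unadjusted p of 0.000341 and an adjusted p of 0.140. With a weight for each library it was 0.80 and passed, the 1 row that did. Without replicate 3, DMD_KD had 27 to 33.2 FPKM, the log2 fold change was 0.83 and the adjusted p 0.159. DMD_KD remained below the 65.0 to 163 FPKM of WT_ND. The summed adipocyte markers were at 13.8 to 68.7 FPKM in DMD_KD and 28.9 to 154 FPKM in DMD_ND.

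The other 5 rows with the smallest p-values had adjusted p-values of 0.232 to 0.241. The row past Hif1an averaged 12.1 ± 2.07 FPKM in DMD_KD and 9.23 ± 1.27 in DMD_ND (SD, n = 6 each), and the golgin A4 row 3.96 ± 0.844 FPKM in DMD_KD and 2.13 ± 1.39 in DMD_ND. The row before Dsn1, a kinetochore protein gene, averaged 4.08 ± 0.742 FPKM in DMD_KD and 5.34 ± 0.634 in DMD_ND. It reached 5 FPKM in DMD_ND libraries only. The level rule itself thus favoured a lower level in DMD_KD, and the p-values of this row are no support. The row before Kansl2, whose product is part of a histone acetyltransferase complex, averaged 5.04 ± 1.13 FPKM in DMD_KD and 7.0 ± 1.11 in DMD_ND. The rows by Dsn1 and Kansl2 entered through mutant libraries alone. AABR07039328.2, a row known by a clone name, had 4.59 to 12.0 FPKM in DMD_KD and 12.1 to 16.8 in DMD_ND without overlap. The other row whose DMD_KD libraries were all lower, named because of that, lies 88 bases past Dcbld2. It averaged 4.33 ± 0.948 FPKM in DMD_KD and 6.04 ± 1.58 in DMD_ND (adjusted p = 0.296, limma), and it too entered through mutant libraries alone. Without DMD_KD replicate 3, the log2 fold change of AABR07039328.2 was -0.32, where it was -0.50 with it, and adjusted p-values of these 6 rows were 0.294 to 0.465. The others were then at 0.29 (Hif1an), 0.87 (golgin A4), -0.27 (Dsn1), -0.30 (Kansl2) and -0.29 (Dcbld2).

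DMD_KD against WT_ND, which shares libraries with both comparisons above, gave 30 rows higher, 39 lower and 75 not called (47.9%, beside 58.3% of all genes tested). In TPM, 80 were higher and 4 lower, beside 57.2% and 4.73% of all genes tested, and with the replicate number as a block 43 were called. Gpx3 had a log2 fold change of 1.90 (adjusted p = 2.52e-06, limma). The row past Col5a1, which met the level rule only with mutant libraries, had one of 2.74. The adipogenin row was at -1.63 (adjusted p = 3.18e-05) and the row past Pdk1 at -0.94 (adjusted p = 5.30e-06). The Tim13 row, called in DMD_ND, did not pass here (log2 fold change -0.39, adjusted p = 0.152). Without DMD_KD replicate 3, 86 rows were called. Shares of all genes called are not given here for that fit or for the block, so neither count is a result about these rows.

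At the edge of the level rule, the fourth highest FPKM of the rows just inside was 5.03 for AABR07039446.1, 5.05 for the row past Xrn1 and 5.13 for the row past Rbm26. Of these, AABR07039446.1 entered through mutant libraries alone. Just outside lay the rows past Xiap, Tnrc6b and Tram2, at 4.999, 4.88 and 4.88 FPKM. The row past Tram2 averaged 5.02 FPKM in DMD_ND and 0.801 in WT_ND, and the row past Tnrc6b 3.54 FPKM in DMD_ND and 6.21 in WT_ND, so the edge parts rows with both kinds of pattern.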

How the data were processed

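Per the labels' protocols, total RNA of frozen tibialis anterior was poly-A selected and copied from random hexamers; the protocols do not settle whether libraries kept strand, and the strand setting of counting is not stated there. The authors deposited FPKM per gene with position, strand, type and length, per the file headers. The submitters' processing notes name the genome build (mRatBN7.2), featureCounts 1.5.0-p3 and HISAT2 2.0.5. The values times gene length, divided by 1 step for each library, were whole reads within 0.05 for 100% of values in each library. This gave the depth of 17125084 to 28116085 assigned reads. The step did not follow these reads alone. WT_ND replicate 1 and DMD_ND replicate 9 had 19232381 and 19011262 reads, but their FPKM summed to 995390 and 368688. Members took 0.272 and 0.607% of reads there, and 0.242 and 0.580% of FPKM.

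The deposited FPKM of genes at 1 FPKM or more in at least 4 libraries (12119 genes, 358 of them lncRNA rows, including all 144 members) entered limma (version 3.58.1, R version 4.3.3) after adding 1 and taking log2, with eBayes trend and robust settings, 1 model over 3 groups and 16 libraries, two-sided, and Benjamini-Hochberg adjustment over all genes. The method was tested on simulated data for DMD_ND against WT_ND over 12119 genes (11919 genes with no change, of which 0.109% were called, and 50 genes per effect, of which 42% were called at a log2 effect of 0.5, 96% at 1, 100% at 2 and 78% at -1). The simulated data had normal noise, few changed genes and no difference in scaling between libraries. In the deposited data 65.7% of genes tested were called, so the simulated share of false calls need not hold there. Each fold change refers to the log2(FPKM + 1) scale. Members, lists and neighbour sets were chosen with earlier results of these data known.

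Genes named were the 5 highest means, the 8 largest called rises and falls in DMD_ND against WT_ND, the 6 smallest p-values of the diet comparison, any member in the role lists (0 of 67 symbols), and 3 rows on each side of the level rule. Rows without a symbol go by ID only among the highest means or the 2 largest rises or falls. Members outside the rule (the receptor, vessel, energy and insulin sets, the rows with coding or LOC names or a small RNA, and the row past Dcbld2) were named after their values were seen. In the marker lists not given above, 3 of 5 satellite cell markers, 1 of 3 Schwann cell markers and 2 of 3 smooth muscle markers rose in DMD_ND and none fell; no red blood cell marker had a protein-coding row. Overlaps were looked up for each member: 19 of 144 overlap another row, 11 of them another lncRNA row. Alternatives were another pseudocount, filter, member rule and scaling, a replicate block, fewer groups, library weights and each library left out. Figures were drawn with matplotlib 3.10.9.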

Additional observations from a re-analysis of the deposited data

Results flagged for a closer look

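Over 72 groups of libraries examined for the named members, 8 held a library far from the rest of its group by Dixon's criterion, which chance gives in about 1 group in 20. DMD_KD replicate 3 was that library 5 times: it was high for the Tim13 row (150.5 FPKM), the TCTA homolog row (73.4 FPKM), LOC102550325 (118.6 FPKM) and the adipogenin row (59.0 FPKM), and low for AABR07039328.2 (4.59 FPKM). In DMD_ND, replicate 7 was high for AABR07039328.2 (16.8 FPKM) and replicate 9 for the row past Tgfbr3 (39.9 FPKM). In WT_ND, replicate 4 was high for the RhoB row (51.9 FPKM).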

How the results depend on the processing

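Of 615 refits for the named members, 584 kept direction and side of the threshold, 27 kept only direction, 1 newly passed (adipogenin row, diet, library weights) and 3 reversed, all under TPM scaling: the Tim13 row (0.46), ENSRNOG00000043210 (0.62) and the TCTA homolog row (0.32). TPM moved the median of all genes by 0.92 in DMD_ND against WT_ND, by -0.25 in DMD_KD against DMD_ND and by 0.67 in DMD_KD against WT_ND. It turned the split of called members to 106 higher and 5 lower in DMD_ND against WT_ND, and to 80 and 4 in DMD_KD against WT_ND, so directions hold relative to the deposited scaling.

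With each library left out in turn, called members numbered 82 to 103 (DMD_ND against WT_ND), 0 to 0 (DMD_KD against DMD_ND) and 61 to 86 (DMD_KD against WT_ND). All 18 calls of named members lost this way were of the Tim13 row (8: without any DMD_ND library, or WT_ND replicate 1 or 4) and ENSRNOG00000043210 (10: without DMD_KD replicate 1, 5, 9 or 10, DMD_ND replicate 3, 5, 6 or 9, or WT_ND replicate 3 or 9). Library weights gave 1 call for the diet. Taking members at 10 or 2 FPKM gave 57 or 160 calls for DMD_ND against WT_ND, and at 2 FPKM 121 for DMD_KD against WT_ND, by the change in their number. Subsets chosen after seeing the data, members with an intron and members not on the 3′ side, gave 40 and 28 calls in DMD_ND against WT_ND and 29 and 25 in DMD_KD against WT_ND, from fewer rows. The counts in this paragraph are not set beside the share of all genes in the same setting and are no result about the members.

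Replicate numbers shared between groups did not pair the libraries: same-numbered libraries correlated at 0.0163 to 0.23 (DMD_KD with DMD_ND), -0.0151 to 0.0628 (DMD_ND with WT_ND) and -0.656 to 0.407 (DMD_KD with WT_ND), and 2 of 8, 1 of 4 and 1 of 6 correlated best with their own number. With the replicate block, members called numbered 65 in DMD_ND against WT_ND, none for the diet, and 43 in DMD_KD against WT_ND. The share of all genes called with the block is not given beside them. LOC102550325 (adjusted p = 0.0793, limma) and the Tim13 row lost their call in DMD_ND against WT_ND. Rows under a few FPKM rest on few reads (lowest 2 reads in a library; median over members of the lowest, 128).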
